A study of Mus musculus and Homo sapiens with 34 samples.

Results

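MC38 is a mouse colorectal carcinoma line derived from a C57BL/6 animal, and its spheroids grown with decellularised small intestinal submucosa (SIS ECM) were compared here with spheroids of the cells alone. The comparison holds 10 of the 34 libraries of the series, taken by their labels: those with SIS ECM numbered 1, 3, 4, 5 and 6 and those of cells alone numbered 1 to 5. The other 24 libraries are spheroids of CT26, a mouse colon carcinoma line derived from a BALB/c animal, and of the human line HT29. Only the 12 CT26 libraries are used below, to show where MC38 differed. Both MC38 cultures were kept in RPMI with L-glutamine, 10% fetal bovine serum and 1% penicillin and streptomycin, in U-bottom wells that cells do not attach to, for 7 days. The labels name no genetic change, drug or second cell type in either culture, so as labelled the spheroids hold 1 line and no cells of a host. Each library was made from polyA RNA of a tube of 10 spheroids. The labels give neither the animal that the submucosa came from nor whether the libraries of a culture were grown separately, and p-values therefore measure only how far the libraries spread, which can be technical.

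Small intestinal submucosa is the collagen-rich layer under the gut lining, and it serves as a scaffold once its cells have been stripped. Tumour cells can both bind such a matrix, through integrins and other receptors, and secrete one, as collagens, laminins and glycoproteins that are hydroxylated and folded in the endoplasmic reticulum before export. Cells in the inside of a spheroid receive less oxygen than cells at its rim. When oxygen is low, the prolyl hydroxylases that mark the alpha subunits of hypoxia-inducible factor (HIF) for breakdown are less active, and HIF then raises genes of glucose uptake, glycolysis, acid export and blood vessel growth by binding the letters ACGTG or GCGTG. Sterol synthesis is under another kind of control: sterol regulatory element binding proteins (SREBPs) leave the endoplasmic reticulum when its membrane holds little sterol, and raise the enzymes of the mevalonate pathway.

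MC38 spheroids with SIS ECM had less RNA of most interstitial collagens, of most enzymes of sterol synthesis and of most HIF target genes. The changes were many and mostly small. Of 13146 genes tested, 1608 rose and 1638 fell with SIS ECM (12.2% and 12.5% of those tested, 24.7% in all), at an adjusted p below 0.05 in the quasi-likelihood test of edgeR, adjusted by Benjamini-Hochberg, which gave every adjusted p below unless another test is named. These shares of all genes tested are the background for the list counts below. The median absolute log2 fold change was 0.28 among changed genes, and the change reached 2-fold in 19 genes that rose and 69 that fell. The mouse libraries also differ by number. In MC38, 5362 genes differed between libraries 1 to 3 (2 SIS ECM and 3 cells-alone) and libraries 4 to 6 (3 SIS ECM and 2 cells-alone), and the labels do not say what sets these numbers apart. The fit therefore has a term for the number range. With it, 3222 of the 3246 changed genes (99.3%) had the same sign in both ranges, while the size of the effect differed between the ranges in 676 of them. These genes were chosen by their effect over all libraries, which favours a shared sign, so the share is no separate test. Among all 13146 genes tested, 3827 had a negative and 3815 a positive effect in both ranges. Libraries 1 to 3 alone called 2569 of 3241 changed genes, and libraries 4 to 6 alone 1486 of 3243. Without the term 502 of 13146 genes rose and 704 fell. With a term for each number held by both cultures 499 of 13179 rose and 689 fell. That fit drops cells-alone library 2 and SIS ECM library 6. List counts under these 2 fits stand beside these lower counts.

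Library totals ran from 18877087 to 24196115 estimated counts in SIS ECM and from 20302534 to 24127292 in cells alone, so that 1 CPM (counts scaled to a library of 1000000) stands for between 18.9 and 24.2 counts. CPM values below are levels scaled by library factors, and fold changes are differences on the log2 scale, SIS ECM over cells alone. Their standard error was worked back from the fold change and its test statistic, and is not that of the fitted coefficient. In bulk RNA, fewer cells of a kind and less RNA per cell cannot be told apart. Defining genes of differentiated colonic epithelium were close to absent: 13 of 14 markers stayed under 10 counts in every library, and the adhesion protein Epcam and the keratin Krt20 were listed at 0 throughout. Epithelial junction genes gave the same picture, with 21 of 26 under 10 counts everywhere. Of the other 5, 2 fell, among them the claudin Cldn1 (−1.001 ± 0.19). Smooth muscle markers (7 of 8), endothelial markers (7 of 8) and leukocyte markers (8 of 10) were also under 10 counts everywhere, and the summed level of each of these lists did not exceed 5.52 CPM in any library. The endothelial adhesion molecule Pecam1 was the tested gene of its list and fell by 0.57 ± 0.14 (adjusted p = 0.0766 without the range term). Among fibroblast markers 7 of 12 were tested, and their summed level was 2698 to 4265 CPM in SIS ECM libraries and 3642 to 4586 CPM in cells-alone libraries. Of those 7 genes 4 fell, among them the collagen chain Col1a1, which is described next, the protease Fap (−0.69 ± 0.10) and the growth factor receptor Pdgfrb (−0.17 ± 0.05, adjusted p = 0.126 with the number term, 0.230 without the range term and up to 0.105 without SIS ECM library 3 or 4 or cells-alone library 5).

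Interstitial collagens, the rod-shaped and beaded chains of connective tissue, fell as a group. Of 13 chains tested 12 fell and 0 rose, and the median log2 fold change was −0.56, against 0.01 over all genes tested. The median was −0.57 in libraries 1 to 3 and −0.57 in libraries 4 to 6. Leaving out any 1 library kept the count at 12, while it was 10 with the number term and 9 without the range term. Another 3 chains of the list, Col1a2 among them, were under 10 counts everywhere. Col1a1, the alpha chain that with Col1a2 makes fibrillar type I collagen (ENSMUSG00000001506.10, chromosome 11, 94936224–94953042, plus strand, mm10), had 1.21, 1.01, 0.584, 0.846 and 0.580 CPM in SIS ECM libraries, against 8.25, 8.35, 6.78, 7.53 and 8.98 CPM in cells-alone libraries. Every SIS ECM library was far below every cells-alone library, and only 5.26% of all genes tested were separated in this direction. The log2 fold change of Col1a1 was −3.21 ± 0.17 (adjusted p = 1.49e-08), the largest fall among the genes named here.

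Chains that sit on or inside collagen fibrils followed. Col12a1, a fibril-associated collagen, had 22.7, 22.96, 15.2, 18.1 and 18.1 CPM in SIS ECM libraries, against 49.9, 47.4, 47.5, 40.1 and 38.8 CPM in cells-alone libraries. Col5a1, which helps to set fibril diameter, had 105, 97.2, 82.1, 87.2 and 87.6 CPM in SIS ECM libraries, against 193, 199.96, 173, 141 and 162 CPM in cells-alone libraries. In both genes each SIS ECM library lay under the lowest cells-alone library, with log2 fold changes of −1.14 ± 0.06 (adjusted p = 1.49e-08) and −0.86 ± 0.05 (adjusted p = 6.84e-08). The partner chains of Col5a1 in type V collagen, Col5a3 (−1.10 ± 0.06) and Col5a2 (−0.40 ± 0.06), fell too, the second more in libraries 4 to 6 (−0.57 ± 0.06) than in libraries 1 to 3 (−0.22 ± 0.06; adjusted p = 0.00416 for the difference). The beaded filament chains Col6a1 (−0.56 ± 0.06) and Col6a2 (−0.64 ± 0.06), the fibrillar chains Col3a1 (−0.52 ± 0.07) and Col11a1 (−0.61 ± 0.11) and the fibril-associated Col16a1 (−0.52 ± 0.06) fell. Changes were smaller in Col6a3 (−0.23 ± 0.05) and Col8a1 (−0.18 ± 0.05), whose adjusted p was 0.0709 and 0.0966 with the number term and 0.0798 and 0.0685 without the range term. Col3a1 also lost its call without the range term (adjusted p = 0.0652). Col27a1 was the chain that did not pass (−0.03 ± 0.08).

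**Figure D1:**
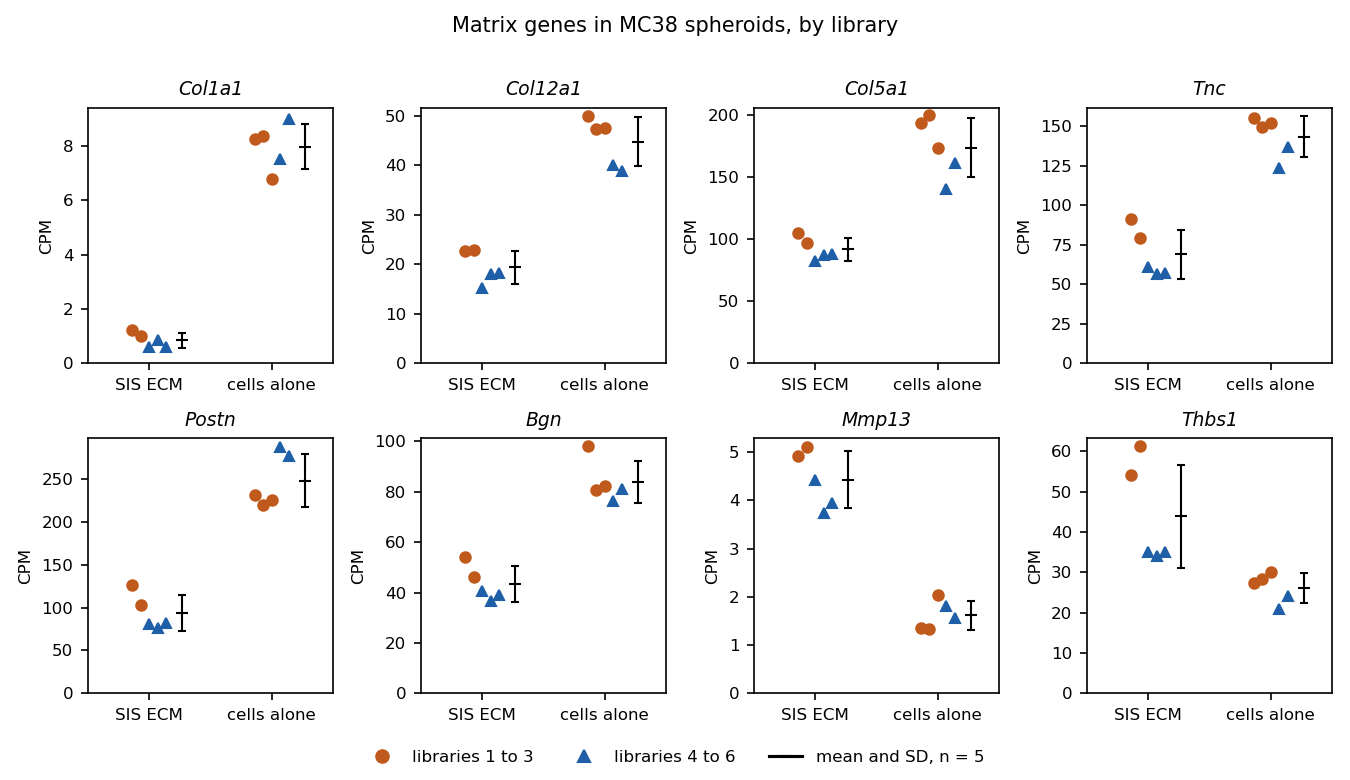
Levels of 8 matrix genes in CPM (vertical axes, linear from 0) in SIS ECM and cells-alone libraries of MC38; circles are libraries 1 to 3, triangles libraries 4 to 6, and bars give mean and SD of 5 libraries. SIS ECM libraries lie below all cells-alone libraries for Col1a1, Col12a1, Col5a1, Tnc, Postn and Bgn and above them for Mmp13 and Thbs1.

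Basement membrane genes split by chain. Of 16 tested 9 fell and 2 rose (median −0.37). The ubiquitous type IV chains Col4a1 (−0.55 ± 0.06) and Col4a2 (−0.56 ± 0.06), which are transcribed from a shared promoter region and form one trimer, fell by like amounts. Col4a6 (0.48 ± 0.04, adjusted p = 2.69e-06) and Col4a5 (0.24 ± 0.04), which pair in another type IV trimer, rose. Col4a6 had 103, 99.7, 82.2, 86.5 and 85.7 CPM in SIS ECM libraries, against 71.9, 74.1, 73.1, 56.9 and 63.6 CPM in cells-alone libraries. The lowest SIS ECM value was above the highest cells-alone value. The laminin chains Lama4 (−0.77 ± 0.06), Lama5 (−0.57 ± 0.12) and Lamc1 (−0.25 ± 0.05), the type XVIII chain Col18a1 that gives rise to endostatin (−0.63 ± 0.06), the proteoglycan perlecan Hspg2 (−0.51 ± 0.07) and the linker nidogen Nid2 (−0.49 ± 0.09) fell, while Nid1 did not pass (−0.04 ± 0.04). Without the range term Col4a5 (adjusted p = 0.178) and Lamc1 (0.0794) were not called.

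Matrix glycoproteins fell in 12 of 23 genes and rose in 4 (median −0.21). Postn, periostin, which links collagen to cell receptors, had 126, 103, 80.6, 76.4 and 81.5 CPM in SIS ECM libraries, against 231, 219, 226, 286 and 276 CPM in cells-alone libraries. Both sets of libraries were fully apart, and the fall was larger in libraries 4 to 6 (−1.82 ± 0.06) than in libraries 1 to 3 (−0.97 ± 0.06; adjusted p = 1.12e-06 for the difference). Over all libraries it was −1.40 ± 0.12 (adjusted p = 1.68e-06). Tnc, the anti-adhesive glycoprotein tenascin C, had 91.2, 79.2, 60.5, 56.6 and 57.3 CPM in SIS ECM libraries, against 155, 149, 152, 123 and 137 CPM in cells-alone libraries. It fell by 1.00 ± 0.06 (adjusted p = 7.23e-08), and no library of either culture reached into the range of the other. The elastic fibre genes Fbn2 (−0.63 ± 0.09), Fbn1 (−0.39 ± 0.04, adjusted p = 0.0988 without the range term) and Fbln2 (−0.68 ± 0.06), the secreted protein Ecm1 (−0.55 ± 0.05) and the collagen-binding Sparc (−0.35 ± 0.05) fell as well. Fibronectin, Fn1, was only slightly lower (−0.20 ± 0.05, adjusted p = 0.0123, but 0.140 with the number term and 0.0865 without the range term).

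A pair of thrombospondins and a latency protein rose. Thbs1, a calcium-binding glycoprotein that can activate latent TGF-beta, had 54.1, 61.3, 35.2, 34.1 and 35.1 CPM in SIS ECM libraries, against 27.4, 28.5, 30.1, 20.8 and 24.3 CPM in cells-alone libraries. SIS ECM libraries 1 and 3 held the highest values, and the lowest SIS ECM value was still above all cells-alone values. The effect was 1.01 ± 0.07 in libraries 1 to 3 and 0.62 ± 0.08 in libraries 4 to 6 (adjusted p = 0.0135 for the difference, but up to 0.0983 without SIS ECM library 3 or cells-alone library 5). Thbs2 rose by 0.44 ± 0.05 (adjusted p = 1.34e-05, and 0.161 without the range term), with levels of 519, 501, 342, 329.9 and 354 CPM in SIS ECM libraries, against 355, 359, 363, 253 and 279 CPM in cells-alone libraries. Those libraries overlapped over both ranges, since libraries 1 to 3 were higher in either culture, and did not overlap within a range. Ltbp1, which holds TGF-beta in the matrix, rose by 0.54 ± 0.05 (adjusted p = 1.68e-06).

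Proteoglycans fell in 7 of 14 genes and rose in 1 (median −0.23), beside 12.5% and 12.2% of all genes tested. With the number term 5 fell and 0 rose (4 and 0 without the range term). Aspn, asporin, a small leucine-rich proteoglycan that binds collagen and TGF-beta, had 1.12, 1.42, 2.25, 1.15 and 1.58 CPM in SIS ECM libraries, against 5.92, 7.15, 7.51, 10.9 and 8.81 CPM in cells-alone libraries. The groups were far apart (log2 fold change −2.49 ± 0.15, adjusted p = 6.00e-08). Its relative Bgn, biglycan, had 54.3, 46.1, 40.6, 36.8 and 39.1 CPM in SIS ECM libraries, against 98.2, 80.9, 82.4, 76.3 and 81.2 CPM in cells-alone libraries. Biglycan fell by 0.91 ± 0.07 (adjusted p = 5.33e-07), again without overlap. The transmembrane proteoglycans Cspg4 (−0.48 ± 0.06) and Sdc4 (−0.34 ± 0.06) fell, and decorin, Dcn, did not pass (−0.07 ± 0.07). Dcn rose in libraries 1 to 3 alone (0.14, adjusted p = 0.0277) and fell in libraries 4 to 6 alone (−0.30, adjusted p = 0.00398).

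Enzymes that modify collagen fell with the chains, in 11 of 20 genes with 0 that rose (median −0.26; 7 and 0 with the number term). Lysyl hydroxylases prepare collagen for crosslinks, and Plod1 (−0.45 ± 0.06), Plod2 (−0.29 ± 0.05) and Plod3 (−0.38 ± 0.05) all fell. Plod3 had 76.3, 73.4, 73.2, 71.4 and 68.9 CPM in SIS ECM libraries, against 101, 100.3, 97.2, 84.0 and 96.3 CPM in cells-alone libraries. The ranges did not overlap. The prolyl hydroxylase subunits P4ha1 (−0.31 ± 0.06) and P4ha2 (−0.66 ± 0.15) fell. For P4ha2, itself a HIF target, the effect was −1.20 ± 0.06 in libraries 1 to 3 and −0.15 ± 0.06 in libraries 4 to 6 (adjusted p = 3.10e-08 for the difference), and was not called without the range term (adjusted p = 0.240). The lysyl oxidase relative Loxl4 (−0.81 ± 0.14) and the collagen chaperone Serpinh1 (−0.26 ± 0.05, adjusted p = 0.0531 with the number term) were lower. The main lysyl oxidase gene, Lox, was under 10 counts in every library.

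Matrix proteases rose more often than they fell. Of 21 proteases and inhibitors 9 rose and 3 fell (median 0.12), beside 12.2% and 12.5% of all genes tested. The counts were 7 and 2 with the number term, and 5 and 3 without the range term (median 0.05). Mmp13, a collagenase, had 4.91, 5.10, 4.42, 3.73 and 3.95 CPM in SIS ECM libraries, against 1.35, 1.33, 2.03, 1.81 and 1.55 CPM in cells-alone libraries. Mmp12, the macrophage elastase, had 3.93, 3.81, 3.84, 3.04 and 2.79 CPM in SIS ECM libraries, against 1.35, 1.24, 1.65, 1.58 and 1.22 CPM in cells-alone libraries. In either gene all SIS ECM values exceeded all cells-alone values, as in 4.39% of the genes tested, with log2 fold changes of 1.48 ± 0.15 (adjusted p = 7.79e-06) and 1.34 ± 0.15 (adjusted p = 2.35e-05). The stromelysins Mmp3 (0.50 ± 0.07) and Mmp10 (0.46 ± 0.07, adjusted p = 0.0556 without the range term), the membrane-bound Mmp14 (0.46 ± 0.05) and the urokinase receptor Plaur (0.45 ± 0.07) rose. The inhibitors of metalloproteases Timp1 (−0.06 ± 0.08), Timp2 (0.13 ± 0.05) and Timp3 (0.10 ± 0.06) did not pass.

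Receptors for matrix moved in both directions, with 4 of 17 higher and 6 lower (median −0.04; 2 and 4 with the number term, 1 and 4 without the range term). Among all genes tested 12.2% were higher and 12.5% lower. Itgb4, the beta chain of the laminin receptor of hemidesmosomes, had 1.74, 1.61, 0.835, 1.05 and 1.27 CPM in SIS ECM libraries, against 4.49, 3.95, 3.83, 3.35 and 3.27 CPM in cells-alone libraries. The SIS ECM values were all lower (−1.47 ± 0.15, adjusted p = 8.48e-06). The vitronectin receptor chain Itgb5 (−0.54 ± 0.08), the laminin receptor chain Itga3 (−0.40 ± 0.10, adjusted p = 0.0514 without the range term) and dystroglycan, Dag1 (−0.36 ± 0.06), fell. Itga2, the chain of a collagen receptor, rose by 0.55 ± 0.13 (adjusted p = 0.00662), and Itgb8, the chain of a receptor that activates latent TGF-beta, by 0.29 ± 0.06 (adjusted p = 0.199 without the range term). The shared chain Itgb1 did not pass (−0.06 ± 0.06).

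Sterol synthesis fell along nearly the whole pathway. Of its 20 enzymes 18 fell and 0 rose, with a median log2 fold change of −0.40 (−0.37 in libraries 1 to 3 and −0.43 in libraries 4 to 6). The count stayed at 18 whichever library was left out, and was 16 with the number term and 15 without the range term. Mvd, the decarboxylase that ends the mevalonate part of the pathway (ENSMUSG00000006517.5, chromosome 8, 122433601–122443422, minus strand, mm10), had 13.3, 10.2, 10.9, 11.6 and 10.4 CPM in SIS ECM libraries, against 24.0, 23.2, 22.5, 16.4 and 24.2 CPM in cells-alone libraries. Cells-alone libraries all lay above the SIS ECM libraries (log2 fold change −0.94 ± 0.10, adjusted p = 1.40e-05). Fdps, which makes farnesyl diphosphate, had 175, 181, 182, 163 and 174 CPM in SIS ECM libraries, against 251, 257, 263, 256 and 269 CPM in cells-alone libraries. The cultures did not overlap here either, and the fall of −0.57 ± 0.04 had the smallest adjusted p of the list (5.11e-07).

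The early enzymes Acat2 (−0.52 ± 0.04), Hmgcs1 (−0.40 ± 0.05, adjusted p = 0.120 without the range term), Mvk (−0.42 ± 0.10), Pmvk (−0.74 ± 0.10) and Idi1 (−0.39 ± 0.06) fell, and so did the committed enzymes of the sterol branch Fdft1 (−0.35 ± 0.05), Sqle (−0.39 ± 0.04) and Lss (−0.46 ± 0.06). Of the enzymes that turn lanosterol into cholesterol, Cyp51 (−0.29 ± 0.05), Tm7sf2 (−0.57 ± 0.11), Msmo1 (−0.30 ± 0.07), Nsdhl (−0.30 ± 0.06) and Dhcr7 (−0.43 ± 0.06) fell. The fall of Msmo1 was larger in libraries 4 to 6 (−0.50 ± 0.06) than in libraries 1 to 3 (−0.10 ± 0.06; adjusted p = 0.00139 for the difference). The desaturase Sc5d had a small fall (−0.21 ± 0.05), with an adjusted p of 0.0564 with the number term and 0.0622 without the range term. The isomerase Ebp (−0.13 ± 0.09) and the reductase Hsd17b7 (0.05 ± 0.06) did not pass.

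**Figure D2:**
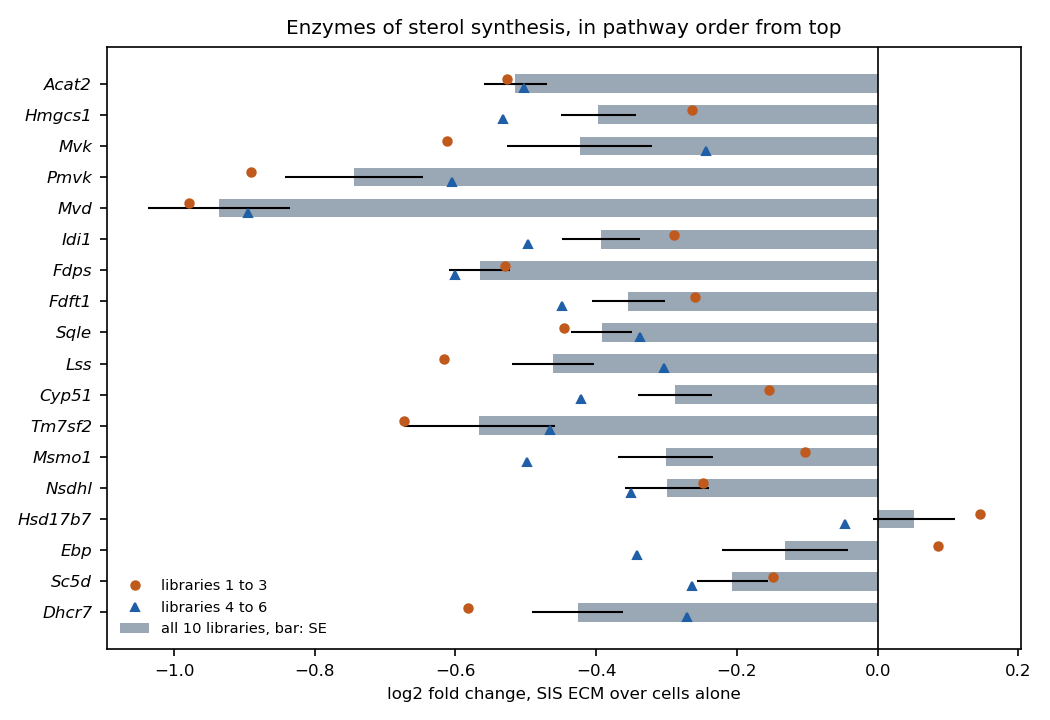
Log2 fold change of SIS ECM over cells alone (horizontal axis) for 18 of the 20 enzymes of sterol synthesis, in pathway order from top to bottom; bars are the fit over all 10 libraries with its standard error, circles the effect in libraries 1 to 3 and triangles the effect in libraries 4 to 6. All bars but that of Hsd17b7 lie left of 0, and Mvd is farthest left.

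The promoter of Hmgcs1 is shown because it is the promoter among 15 matched sterol enzymes that holds the letters TCACNCCAC, the core of the classical sterol regulatory element, on either strand within 250 bases before the start of the gene. The same letters occur in 1.04% of 27025 promoters read and in 0.847% of those of 9558 genes tested. The stretch below is from RefSeq (GRCm38.p6, chr13:119690164-119690263, plus strand), with the match in capitals. No match in the other 14 says only that these letters are not in that window.

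Hmgcs1: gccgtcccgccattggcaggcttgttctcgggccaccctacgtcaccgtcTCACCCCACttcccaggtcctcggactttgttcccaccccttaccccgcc

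Hmgcs1, the synthase early in the mevalonate pathway, had 419.5, 404, 239, 234 and 239 CPM in SIS ECM libraries, against 470.2, 501, 511, 347 and 339 CPM in cells-alone libraries. Levels in libraries 4 to 6 were lower than in libraries 1 to 3 in both cultures, and within a range every SIS ECM value was below every cells-alone value. The effect was −0.26 ± 0.05 in libraries 1 to 3 and −0.53 ± 0.05 in libraries 4 to 6 (adjusted p = 0.00954 for the difference), and the gene was not called without the range term (adjusted p = 0.120).

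Regulators and carriers of sterol moved in both directions. Of 17 tested 7 fell and 2 rose, beside 12.5% and 12.2% of all genes tested (median −0.10; 4 and 1 with the number term or without the range term). The SREBP genes Srebf1 (−0.36 ± 0.07) and Srebf2 (−0.28 ± 0.06), the sterol carrier Stard4 (−0.28 ± 0.05) and the sterol receptor Tmem97 (−0.30 ± 0.05, adjusted p = 0.0796 without the range term) fell. The SREBP escort Scap (−0.10 ± 0.08) and the retention proteins Insig1 (−0.01 ± 0.05) and Insig2 (−0.11 ± 0.06) did not pass. Abca1, which exports cholesterol and is raised by sterol-sensing LXR receptors, had 98.1, 87.7, 55.9, 58.4 and 59.6 CPM in SIS ECM libraries, against 51.8, 55.5, 54.2, 39.3 and 35.7 CPM in cells-alone libraries. It rose by 0.71 ± 0.05 (adjusted p = 4.82e-07) within both ranges, and the highest values of either culture were those of libraries 1 to 3.

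Fatty acid genes, many of which share SREBP control, fell in 15 of 24 and rose in 2 (median −0.24; 10 and 0 without the range term). Acss2, which makes acetyl-CoA from acetate, had 16.3, 17.5, 14.3, 15.5 and 14.6 CPM in SIS ECM libraries, against 31.4, 34.9, 33.2, 23.1 and 21.4 CPM in cells-alone libraries. The cultures were separate (−0.79 ± 0.08, adjusted p = 5.99e-06). The carboxylase Acaca (−0.28 ± 0.04), the synthase Fasn (−0.40 ± 0.07) and the desaturases Scd1 (−0.45 ± 0.05), Scd2 (−0.43 ± 0.06), Fads1 (−0.34 ± 0.06) and Fads2 (−0.55 ± 0.05) fell, while the elongases Elovl5 (−0.06 ± 0.05) and Elovl6 (−0.06 ± 0.04) did not pass.

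HIF target genes fell strongly in libraries 1 to 3 and weakly in libraries 4 to 6. Outside glycolysis 16 of 23 tested genes fell and 0 rose (median −0.44). The count that fell was 13 with the number term, 11 without the range term and 12 to 18 with 1 library left out. The median effect was −0.84 in libraries 1 to 3 and −0.17 in libraries 4 to 6, and the difference between the ranges passed its own test in 18 of the 23 genes, against 2878 of 13146 genes tested (21.9%). That last count is 4657 at an unadjusted p below 0.05, and 1555 without SIS ECM library 3. Fitted alone, libraries 1 to 3 gave 19 genes that fell and 0 that rose, and libraries 4 to 6 gave 12 and 1. Over all genes, libraries 1 to 3 alone gave 2714 of 13310 that fell and 2573 that rose. Libraries 4 to 6 alone gave 1148 of 13532 that fell and 1170 that rose. Genes of glucose uptake and glycolysis fell in 17 of 22 with 0 that rose (median −0.33, −0.40 in libraries 1 to 3 and −0.22 in libraries 4 to 6), and 11 of them differed between the ranges. Here the count that fell was 12 with the number term, 13 without the range term and 15 to 19 with 1 library left out.

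Promoter stretches are shown for 6 of these genes, 4 whose effect differed between the ranges and 2 whose effect was not called different, with ACGTG or GCGTG on either strand in capitals (read on the other strand as CACGT or CACGC). The letters CACGTG hold a match on each strand, and both are counted. All 6 are from RefSeq (GRCm38.p6). Slc2a1 lies at chr4:119108645-119108744 and Slc16a3 at chr11:120948967-120949066, both on the plus strand, and Egln3 at chr12:54204025-54204124 and Hk2 at chr6:82774581-82774680, both on the minus strand. Pgk1 lies at chrX:106186909-106187008 on the plus strand and Gapdh at chr6:125165774-125165873 on the minus strand.

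Slc2a1: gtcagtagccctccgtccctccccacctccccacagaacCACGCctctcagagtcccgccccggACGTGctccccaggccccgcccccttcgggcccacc
Slc16a3: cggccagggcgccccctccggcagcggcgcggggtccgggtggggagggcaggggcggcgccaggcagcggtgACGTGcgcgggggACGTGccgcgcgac
Egln3: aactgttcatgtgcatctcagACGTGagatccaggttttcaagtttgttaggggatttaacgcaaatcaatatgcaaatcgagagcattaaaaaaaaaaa
Hk2: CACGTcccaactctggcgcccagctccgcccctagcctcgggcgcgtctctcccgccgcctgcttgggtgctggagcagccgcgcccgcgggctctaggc
Pgk1: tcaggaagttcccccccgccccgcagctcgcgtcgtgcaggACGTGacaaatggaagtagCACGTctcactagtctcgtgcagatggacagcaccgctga
Gapdh: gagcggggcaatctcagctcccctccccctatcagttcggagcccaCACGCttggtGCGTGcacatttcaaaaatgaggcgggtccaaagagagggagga

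Over both lists these letters occur in 19 of 24 matched promoters of genes whose effect differed between the ranges and in 11 of 15 of genes whose effect was not called different. Within 250 bases before the start they occur in 16 of 20 matched HIF targets outside glycolysis (80.0%), in 16 of 22 glycolysis genes (72.7%), in 9 of 15 sterol enzymes (60.0%), in 8 of 15 genes of sterol regulation and uptake (53.3%) and in 5 of 12 interstitial collagens (41.7%). The shares were 57.7% of the 9558 tested genes whose promoters were read and 38.6% of all 27025 promoters read. A match is a description of the letters and not of binding.

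Slc2a1, the main glucose transporter of many tumours (ENSMUSG00000028645.11, chromosome 4, 119108711–119137983, plus strand, mm10), had 44.6, 42.7, 86.1, 89.5 and 84.4 CPM in SIS ECM libraries, against 143, 139, 140.4, 112 and 119 CPM in cells-alone libraries. All SIS ECM values were lower than all cells-alone values, and SIS ECM libraries 1 and 3 were the lowest. The effect was −1.69 ± 0.06 in libraries 1 to 3 and −0.41 ± 0.05 in libraries 4 to 6 (adjusted p = 7.68e-11 for the difference). Hk2, the hexokinase that traps glucose, had 22.4, 22.6, 51.5, 53.1 and 51.3 CPM in SIS ECM libraries, against 88.3, 81.7, 78.2, 54.2 and 55.9 CPM in cells-alone libraries. In libraries 1 to 3 the cultures were far apart and in libraries 4 to 6 they nearly met (−1.88 ± 0.07 and −0.08 ± 0.06, adjusted p = 8.38e-12). Over all libraries Hk2 fell by 0.94 ± 0.24 (adjusted p = 0.0114), a call that ended without SIS ECM library 1 or 3 (adjusted p up to 0.0673) and without the range term (0.0548).

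Several enzymes of glycolysis fell in both ranges. Gapdh, the dehydrogenase in the middle of glycolysis, had 1708, 1708, 1793, 1649 and 1717 CPM in SIS ECM libraries, against 2200.4, 2190.2, 2279, 2214 and 2562 CPM in cells-alone libraries. Every SIS ECM value was below every cells-alone value, at −0.38 ± 0.06 in libraries 1 to 3 and −0.47 ± 0.06 in libraries 4 to 6. The aldolase Aldoa (−0.33 ± 0.05), the isomerase Tpi1 (−0.32 ± 0.05) and the kinase Pkm (−0.34 ± 0.05) fell as well, and the difference between the ranges did not pass for any of these 4 genes (adjusted p from 0.491 to 0.998). Pgk1 (−0.25 ± 0.05), Eno1 (−0.27 ± 0.06) and Ldha (−0.17 ± 0.05) had adjusted p = 0.0785, 0.0666 and 0.159 with the number term. Pgk1 (0.0752) and Ldha (0.180) were also not called without the range term, nor Ldha without SIS ECM library 1 or cells-alone library 5 (up to 0.0621). The lactate exporter Slc16a3 (−0.68 ± 0.09), the isomerase Gpi1 (−0.50 ± 0.06) and the phosphofructokinases Pfkl (−0.47 ± 0.09) and Pfkp (−0.48 ± 0.09) fell more in libraries 1 to 3. Gapdh, Pgk1, Eno1, Tpi1 and Ldha have processed pseudogenes, and the sources used here do not say how reads shared with them were split.

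Ankrd37, a HIF target of little-known function, had 7.91, 6.34, 28.3, 26.0 and 28.4 CPM in SIS ECM libraries, against 49.1, 45.4, 47.9, 39.7 and 42.3 CPM in cells-alone libraries. SIS ECM libraries 1 and 3 stood lowest, SIS ECM libraries 4 to 6 in the middle and cells-alone libraries highest. Its effect was −2.73 ± 0.09 in libraries 1 to 3 and −0.57 ± 0.07 in libraries 4 to 6 (adjusted p = 2.19e-11). Egln3, an oxygen-sensing prolyl hydroxylase that HIF itself raises, had 49.1, 50.4, 101, 91.5 and 95.7 CPM in SIS ECM libraries, against 182, 176, 175, 125 and 126 CPM in cells-alone libraries. The same order held, with −1.84 ± 0.06 and −0.39 ± 0.05 (adjusted p = 1.03e-11). Its relative Egln1 (−0.58 ± 0.09), the carbonic anhydrase Car9 (−0.80 ± 0.12), the stress protein Ndrg1 (−0.67 ± 0.08) and the lipid droplet protein Hilpda (−0.80 ± 0.14) fell, each more in libraries 1 to 3. For Car9 the difference between the ranges had an adjusted p of 0.0678 without SIS ECM library 3.

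Ero1l, an oxidase of protein folding, had 505, 454, 568, 577 and 579 CPM in SIS ECM libraries, against 1231, 1324, 1429, 1000.0 and 864 CPM in cells-alone libraries. This gene kept a large fall in both ranges (−1.47 ± 0.07 and −0.70 ± 0.07; adjusted p = 1.46e-05 for the difference), and its libraries did not overlap (adjusted p = 1.49e-05 over all). Vegfa, the main growth factor of blood vessels, had 139, 137, 229, 261 and 254 CPM in SIS ECM libraries, against 239, 241, 229, 241 and 217 CPM in cells-alone libraries. SIS ECM libraries 1 and 3 were low and libraries 4 to 6 of both cultures lay together, with −0.78 ± 0.06 in libraries 1 to 3 and 0.11 ± 0.06 in libraries 4 to 6 (adjusted p = 1.90e-07). Over all libraries Vegfa did not pass (−0.33 ± 0.13, adjusted p = 0.0693, but 1.08e-07 without the count filter). The value without the filter does not show a fall in both ranges. Bhlhe40, a transcriptional repressor of the clock, had 53.4, 51.1, 57.3, 55.2 and 61.2 CPM in SIS ECM libraries, against 145, 143, 129.9, 58.6 and 59.8 CPM in cells-alone libraries. Only cells-alone libraries 1 to 3 were high, and the call over all libraries (−0.73 ± 0.19, adjusted p = 0.0112) ended without SIS ECM library 1 or 3 (up to 0.0703).

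**Figure D3:**
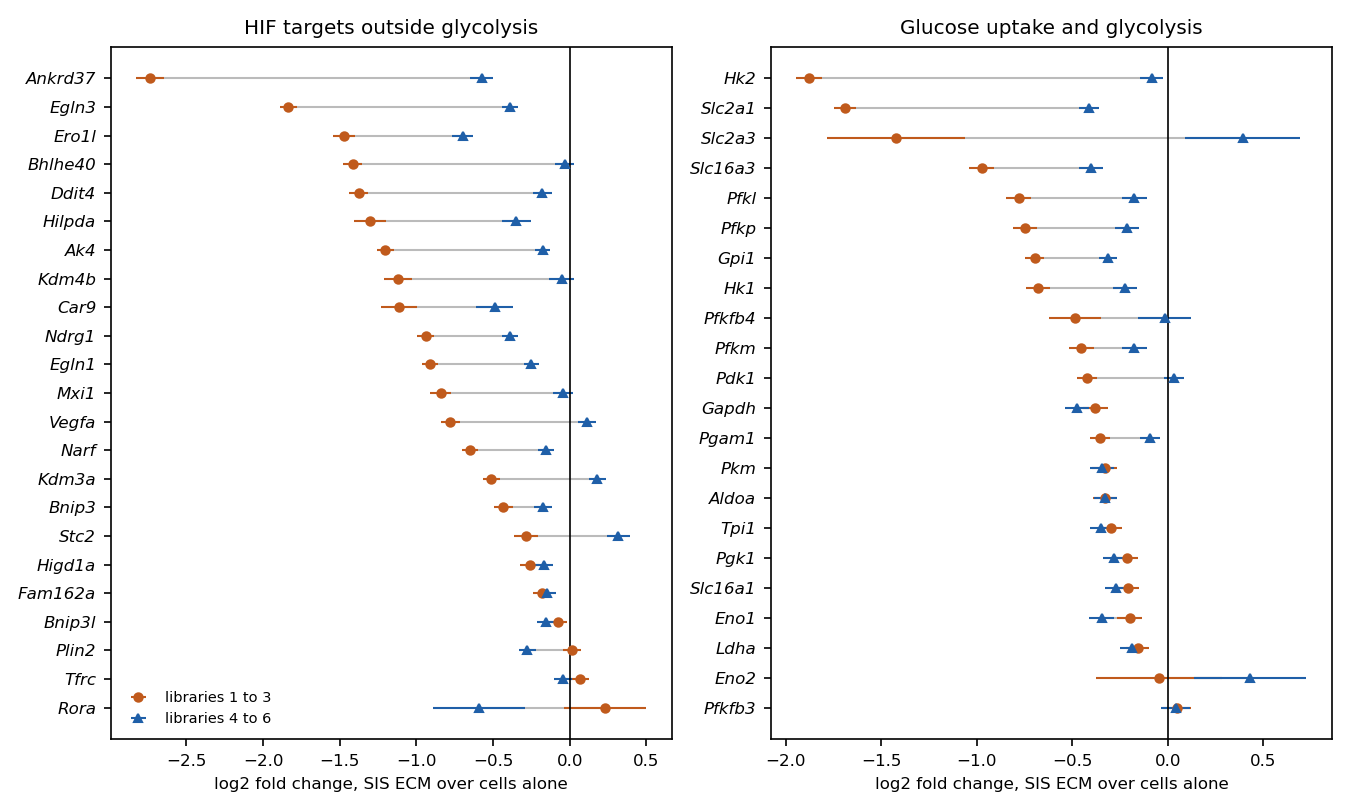
Log2 fold change of SIS ECM over cells alone (horizontal axes) within libraries 1 to 3 (circles) and libraries 4 to 6 (triangles) for 23 HIF targets outside glycolysis and 22 genes of glucose uptake and glycolysis, with standard errors as bars. Most circles lie left of their triangles, from Ankrd37 at the top of the first panel, while the symbols of Gapdh, Pkm, Aldoa and Tpi1 lie together near −0.3 to −0.5.

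Prdm1, a transcriptional repressor of lymphocyte differentiation, changed direction between the ranges. It had 6.30, 5.60, 17.4, 21.6 and 21.7 CPM in SIS ECM libraries, against 29.0, 29.3, 23.5, 15.1 and 12.7 CPM in cells-alone libraries. In libraries 1 to 3 SIS ECM values were far below cells-alone values (−2.20 ± 0.13), and in libraries 4 to 6 they were above them (0.54 ± 0.11; adjusted p = 2.03e-10 for the difference, 0.173 for the effect over all libraries, which was 2.97e-14 without the count filter). Since the signs differ, that last value does not show an effect common to both ranges.

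Transcripts of mitochondrial DNA, which encode subunits of the respiratory chain, also went with the number range. They made up 4.92% and 4.94% of counts in SIS ECM libraries 1 and 3 and 6.00% to 6.46% in SIS ECM libraries 4 to 6, against 3.42% to 3.75% in cells-alone libraries 1 to 3 and 7.24% and 5.71% in cells-alone libraries 4 and 5. The median effect over the 13 genes was 0.59 in libraries 1 to 3 and −0.08 in libraries 4 to 6, and 11 differed between the ranges. Over all libraries 3 rose, namely mt-Nd1, mt-Nd2 and mt-Nd3. That count was 1 without SIS ECM library 1 and 9 without cells-alone library 4, 0 without the range term and 1 with the number term. mt-Nd1 had 5272, 5328, 6104, 5781 and 5584 CPM in SIS ECM libraries, against 3009, 3291, 3236, 6569 and 5067 CPM in cells-alone libraries. Its call (adjusted p = 0.0298) ended without SIS ECM library 1 or 3 or cells-alone library 1, 2, 3 or 5 (up to 0.110). The adjusted p with the number term was 0.0965 for mt-Nd1 and 0.0521 for mt-Nd2, and without the range term 0.205, 0.192 and 0.113 for mt-Nd1, mt-Nd2 and mt-Nd3. mt-Nd2 ended without SIS ECM library 1 (adjusted p = 0.0633). In libraries 1 to 3 the share of mitochondrial reads was higher with SIS ECM, while the HIF targets were lower. The part of that share in the HIF target results was not tested.

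Nuclear genes of the respiratory chain changed in 5 of 29 (1 rose, 4 fell), beside 24.7% of all genes tested. The ranges went in opposite directions. Libraries 1 to 3 alone gave 10 that rose and 1 that fell (median 0.10). Libraries 4 to 6 alone gave 0 that rose and 6 that fell (median −0.11). Over all genes, libraries 1 to 3 alone called 5287 of 13310 (2573 rose, 2714 fell). Libraries 4 to 6 alone called 2318 of 13532 (1170 rose, 1148 fell). The number of calls in the list was near these shares, and the direction is what set it apart. The effect differed between the ranges in 12 of 29 genes, beside 21.9% of all genes tested. The oxidase subunit Cox4i1 (−0.20 ± 0.06) and the complex I subunits Ndufs8 (−0.33 ± 0.09) and Ndufa2 (−0.29 ± 0.10) fell, and Ndufs1 rose (0.16 ± 0.05). With the number term Ndufs8 still passed and Cox4i1 (0.115), Ndufs1 (0.177) and Ndufa2 (0.153) did not, and without the range term none of the 4 passed (adjusted p = 0.419, 0.349, 0.109 and 0.425 for Cox4i1, Ndufs8, Ndufs1 and Ndufa2). Leaving out 1 library ended the call on Ndufs8 in 2 cases, cells-alone library 5 and SIS ECM library 1 (up to 0.0836), on Ndufs1 in 6, SIS ECM libraries 1, 3 and 4 and the cells-alone libraries 1 to 3 (up to 0.150), and on Ndufa2 in all cases but cells-alone library 2 and SIS ECM library 3 (up to 0.221). The count of 5 became 1 without SIS ECM library 1, 2 without SIS ECM library 4 or cells-alone library 3 or 5, and 3 without SIS ECM library 5 or 6 or cells-alone library 1.

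**Figure D4:**
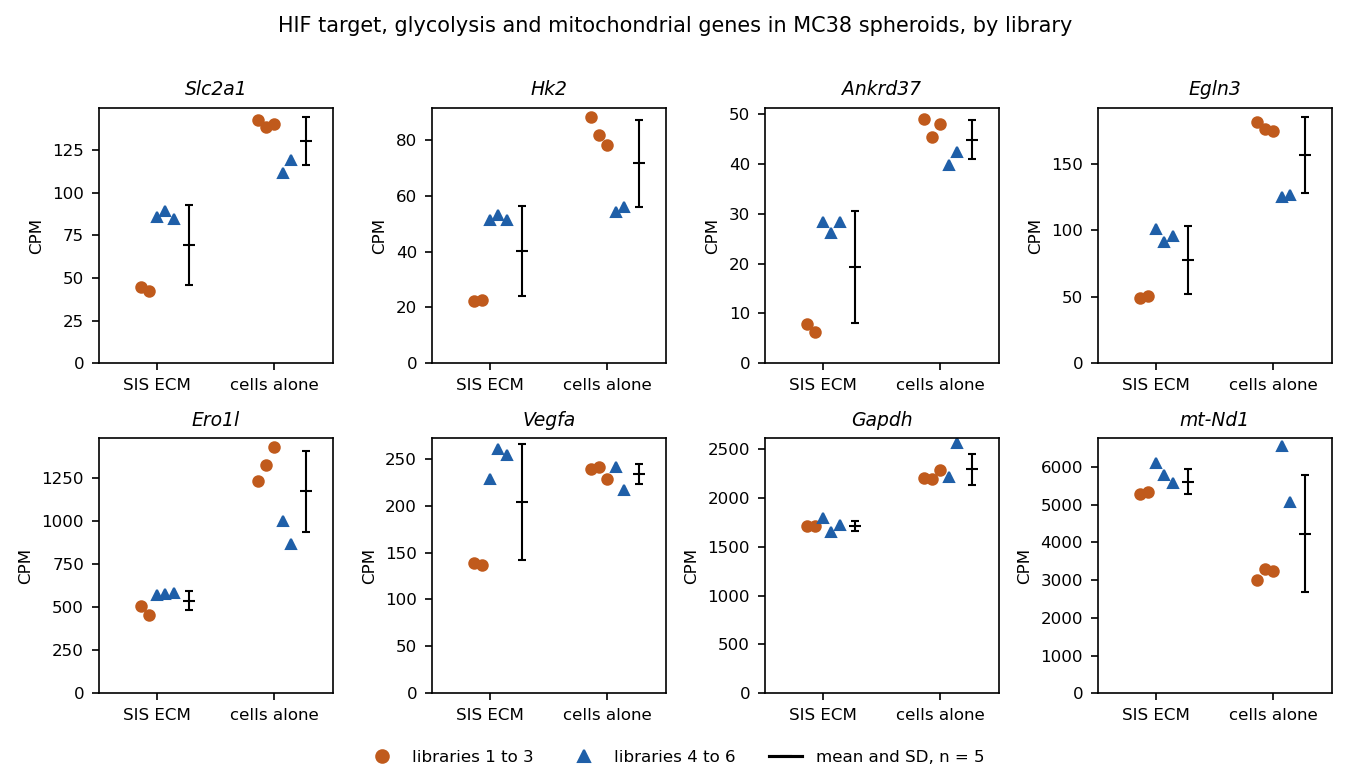
Levels of 8 genes in CPM (vertical axes, linear from 0) in SIS ECM and cells-alone libraries of MC38; circles are libraries 1 to 3, triangles libraries 4 to 6, and bars give mean and SD of 5 libraries. For Slc2a1, Hk2, Ankrd37, Egln3 and Vegfa, SIS ECM circles are lowest, and Gapdh is lower with SIS ECM in both ranges; for mt-Nd1 the cells-alone circles are lowest.

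Genes of oxidative and metal stress fell in 9 of 22 and rose in 2, beside 12.5% and 12.2% of all genes tested (median −0.14; 6 and 1 both with the number term and without the range term). Hmox1, the haem oxygenase that is raised by haem and oxidants, had 60.3, 60.4, 46.5, 46.1 and 46.2 CPM in SIS ECM libraries, against 185, 208, 218, 101 and 114 CPM in cells-alone libraries. All cells-alone values were higher, those of libraries 1 to 3 most, and Hmox1 fell by 1.49 ± 0.09 (adjusted p = 4.37e-08). Its effect was −1.75 ± 0.07 in libraries 1 to 3 and −1.22 ± 0.07 in libraries 4 to 6 (adjusted p = 4.49e-04 for the difference). The metallothionein Mt2, a buffer of zinc and copper, had 87.3, 112, 73.8, 77.8 and 67.5 CPM in SIS ECM libraries, against 161, 167, 162, 133 and 155 CPM in cells-alone libraries. Mt2 fell by 0.84 ± 0.07 (adjusted p = 1.85e-06) with its values apart, and the closely similar Mt1 fell by 0.60 ± 0.09, a pair between which shared reads could have been split. The ferritin chain Ftl1 (−0.42 ± 0.05) and the pentose phosphate enzymes Tkt (−0.38 ± 0.06) and Taldo1 (−0.40 ± 0.06) fell. The regulator NRF2, encoded by Nfe2l2, rose by 0.32 ± 0.06. Gclc (0.10 ± 0.04) and Srxn1 (−0.02 ± 0.04) of this list of NRF2 and oxidative stress genes did not pass, unlike the genes above that fell.

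Stress of amino acid supply and protein folding was represented by 24 genes, of which 8 fell and 2 rose (median −0.12; 2 and 0 with the number term, and 2 and 0 without the range term). Of all genes tested 12.5% fell and 12.2% rose. Over all genes the number term gave 1188 calls of 13179, and no range term gave 1206 of 13146. In both of those fits the share of the list was near that of all genes. Trib3, a pseudokinase that ATF4 raises, had 23.3, 24.5, 20.8, 25.8 and 23.6 CPM in SIS ECM libraries, against 50.7, 42.7, 47.4, 35.9 and 41.5 CPM in cells-alone libraries. Those values did not overlap (log2 fold change −0.85 ± 0.08, adjusted p = 2.86e-06). Ddit3, the factor CHOP, fell by 0.43 ± 0.07 (adjusted p = 4.51e-04, and 0.238 without the range term) and Atf4 fell by 0.19 ± 0.04 (adjusted p = 0.00369, and 0.0937 with the number term). Phgdh, the first enzyme of serine synthesis, fell by 0.23 ± 0.05 (adjusted p = 0.0570 with the number term and 0.0708 without the range term), and the folding chaperone Hspa5 did not pass (−0.08 ± 0.05).

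Few early response genes passed, with 2 of 27 lower and 1 higher (median −0.06), beside 24.7% called of all genes tested. Ier3, a survival gene of the early response, had 13.6, 14.1, 20.2, 21.5 and 19.7 CPM in SIS ECM libraries, against 53.8, 47.9, 50.6, 30.2 and 31.1 CPM in cells-alone libraries. The cultures were apart, with −1.87 ± 0.08 in libraries 1 to 3 and −0.58 ± 0.07 in libraries 4 to 6 (adjusted p = 2.58e-08 for the difference). Junb, a partner in the AP-1 factor, had 2.86, 2.20, 3.59, 4.38 and 3.27 CPM in SIS ECM libraries, against 6.64, 7.11, 5.33, 4.97 and 8.02 CPM in cells-alone libraries. Junb fell by 1.04 ± 0.16 (adjusted p = 4.12e-04), while Fos (0.40 ± 0.23), Jun (−0.06 ± 0.06) and Egr1 (−0.12 ± 0.07) did not pass. The phosphatase Dusp1 was the gene that rose (0.26 ± 0.08, adjusted p = 0.104 with the number term, 0.545 without the range term, and up to 0.109 without SIS ECM library 1, 3 or 5 or cells-alone library 2, 3 or 4).

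Among NF-kB targets and chemokines 5 of 19 fell and 1 rose, a share near the 24.7% of all genes tested (median −0.16; 2 and 0 without the range term, and 8 and 2 without cells-alone library 4). The T cell chemokine Ccl5 (−0.62 ± 0.10), the cytokine Lif (−0.66 ± 0.13) and the inhibitor Nfkbia (−0.25 ± 0.05, adjusted p = 0.0573 without the range term) fell, and the atypical inhibitor Nfkbiz rose (0.30 ± 0.07, adjusted p = 0.0708 without the range term).

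TGF-beta and YAP targets fell in 8 of 20 and rose in 4, beside 12.5% and 12.2% of all genes tested (median 0.05; 5 and 0 with the number term, 4 and 0 without the range term). The inhibitory Smad7 (−0.39 ± 0.06), the muscle ankyrin protein Ankrd1 (−0.47 ± 0.08) and the helix-loop-helix inhibitor Id1 (−0.46 ± 0.09, adjusted p = 0.0805 without the range term) fell. Of p53 targets 5 of 20 fell and 1 rose, a share near the 24.7% of all genes tested (median −0.03; 3 and 0 with the number term, 2 and 0 without the range term). Cdkn1a, the cell cycle inhibitor p21, had 35.4, 37.9, 34.8, 33.6 and 33.5 CPM in SIS ECM libraries, against 64.4, 59.7, 64.8, 42.1 and 46.5 CPM in cells-alone libraries. Every SIS ECM library was lower (−0.58 ± 0.07, adjusted p = 5.32e-05). The repressor of AKT signalling Phlda3 (−0.38 ± 0.06), the kinase Plk2 (−0.35 ± 0.06, adjusted p = 0.0778 without the range term) and the pore former Bax (−0.27 ± 0.07, adjusted p = 0.0964 with the number term and 0.0657 without the range term) fell as well.

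DNA replication genes rose in 7 of 26 and fell in 1 over all libraries (24.7% of all genes tested changed), at a median of 0.11, with a median of 0.19 in libraries 1 to 3 and 0.01 in libraries 4 to 6. With the number term 0 passed and without the range term 1 rose, and without SIS ECM library 1 or without SIS ECM library 3 the count was 1. Without cells-alone library 2, 4 genes changed, and without SIS ECM library 4 or cells-alone library 3 the number was 5. Libraries 1 to 3 alone gave 16 that rose and 1 that fell, and libraries 4 to 6 alone gave 0. Over all genes, these fits called 5287 of 13310 and 2318 of 13532. The sliding clamp Pcna (0.36 ± 0.05 in libraries 1 to 3, 0.04 ± 0.05 in libraries 4 to 6, adjusted p = 0.00501 for the difference) and the cyclin Ccne2 (0.37 ± 0.06 and 0.07 ± 0.06, adjusted p = 0.0165, but up to 0.0593 without SIS ECM library 3 or 5 or cells-alone library 4) differed between the ranges. Over all libraries Pcna and Ccne2 had adjusted p = 0.0214 and 0.0170, ended with the number term (0.104 and 0.105), without the range term (0.113 and 0.264) and without SIS ECM library 1 or 3 (up to 0.0807 and 0.0690). The polymerase subunit Pole (0.16 ± 0.04) and the helicase component Gins1 (0.23 ± 0.06) rose too, with adjusted p = 0.144 and 0.0963 with the number term, 0.272 for Pole without the range term, and up to 0.0521 for Gins1 without SIS ECM library 1 or 3.

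Mitosis genes rose in 1 of 26 and fell in 3 (median 0.00), beside 24.7% called of all genes tested. With the number term or without the range term 0 passed. The kinetochore gene Nuf2 (0.22 ± 0.05) rose, and the kinases Plk1 (−0.21 ± 0.06) and Aurkb (−0.18 ± 0.06) and the cyclin Ccnb2 (−0.14 ± 0.05) fell. Adjusted p for Nuf2, Plk1, Aurkb and Ccnb2 was 0.0723, 0.149, 0.220 and 0.262 with the number term and 0.175, 0.0609, 0.0668 and 0.106 without the range term. The count of 4 became 2 without cells-alone library 2 and 1 without SIS ECM library 1 or cells-alone library 5. The call ended on Plk1 without SIS ECM library 1 or cells-alone library 5 (adjusted p up to 0.0910), on Aurkb without SIS ECM library 1 or 3 or cells-alone library 1, 2 or 5 (up to 0.0854), and on Ccnb2 in all omissions but cells-alone library 1 and SIS ECM library 3 (up to 0.123). The proliferation marker Mki67 did not pass (0.04 ± 0.05).

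Mesenchymal genes fell in 4 of 13 and rose in 0, beside 12.5% that fell and 24.7% that changed among all genes tested (median −0.03; 1 and 0 with the number term or without the range term). The repressor Snai1 fell by 0.45 ± 0.09 (adjusted p = 0.00151), and the factors Snai2 (−0.01 ± 0.09), Zeb1 (0.10 ± 0.04) and Twist1 (−0.03 ± 0.07) did not pass. Besides Fn1, given above, the receptor kinase Axl (−0.16 ± 0.04) and the intermediate filament Vim (−0.17 ± 0.06) fell by small amounts. Those 3 calls ended with the number term (adjusted p = 0.140, 0.166 and 0.264 for Fn1, Axl and Vim) and without the range term (0.0865, 0.0956 and 0.174), and that on Vim in all omissions of a library but those of cells-alone library 1 and SIS ECM library 3 (up to 0.131). The cadherins Cdh2 (−0.20 ± 0.08) and Cdh11 (0.10 ± 0.11) did not pass either. Libraries 1 to 3 alone gave a rise of Cdh11 (0.40, adjusted p = 0.00334), and libraries 4 to 6 alone gave −0.24 (adjusted p = 0.122).

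Of 31 interferon-stimulated genes 9 rose and 1 fell over all libraries, and 21 did not pass (median 0.13, 0.20 in libraries 1 to 3 and 0.03 in libraries 4 to 6; 5 and 1 with the number term), beside 24.7% called of all genes tested. The direction rested on libraries 1 to 3, which alone gave 15 that rose and 1 that fell, while libraries 4 to 6 alone gave 6 and 7. Over all genes, libraries 1 to 3 alone called 5287 of 13310 and libraries 4 to 6 alone 2318 of 13532. The list counts were 6 and 3 without SIS ECM library 3. The effect differed between the ranges in 13 of the 31. Ifi204, an interferon-induced sensor of DNA, had 21.0, 22.9, 23.3, 22.8 and 24.1 CPM in SIS ECM libraries, against 10.5, 9.73, 10.7, 15.4 and 14.1 CPM in cells-alone libraries. It was higher in every SIS ECM library, by 0.87 ± 0.08 (adjusted p = 3.96e-06), and belongs to a family of near-identical genes among which reads can be split. The nucleic acid sensor Zbp1 (0.42 ± 0.05), the oligoadenylate synthetase-like Oasl2 (0.30 ± 0.05) and the interferon factor Irf9 (0.29 ± 0.06) rose, and Irf1 fell (−0.28 ± 0.05). The factor Irf7 (−0.02 ± 0.08) and the effectors Isg15 (−0.13 ± 0.08), Rsad2 (−0.15 ± 0.07) and Ifit1 (0.12 ± 0.10) did not pass. MHC class I presentation genes fell in 8 of 16 and rose in 0 (median −0.17; 4 and 0 with the number term). The immunoproteasome subunit Psmb10 had 34.0, 39.0, 36.8, 37.6 and 35.5 CPM in SIS ECM libraries, against 44.9, 44.4, 42.9, 52.1 and 62.7 CPM in cells-alone libraries. It fell by 0.46 ± 0.08 (adjusted p = 5.57e-04), and all cells-alone values were higher. The peptide transporter chains Tap2 (−0.42 ± 0.08) and Tap1 (−0.24 ± 0.05, adjusted p = 0.0657 with the number term) and the subunits Psmb8 (−0.26 ± 0.05) and Psmb9 (−0.29 ± 0.07) fell, while the heavy chain H2-K1 (−0.11 ± 0.04) and the light chain B2m (0.21 ± 0.08) did not pass.

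The 12 genes that rose most, with full separation of the cultures and a mean log2 CPM of at least 2, were led by Bcl6b. Bcl6b, a transcriptional repressor related to Bcl6 (ENSMUSG00000000317.11, chromosome 11, 70224128–70229798, minus strand, mm10), had 7.77, 9.37, 12.5, 11.7 and 12.6 CPM in SIS ECM libraries, against 2.15, 2.71, 2.18, 2.56 and 2.77 CPM in cells-alone libraries. SIS ECM libraries 4 to 6 were the highest, and the lowest SIS ECM value was well above every cells-alone value (log2 fold change 2.03 ± 0.11, adjusted p = 1.49e-08). St3gal4, which adds sialic acid to glycoproteins, had 159, 165, 165, 154 and 159 CPM in SIS ECM libraries, against 87.3, 87.9, 85.8, 70.0 and 71.9 CPM in cells-alone libraries. Its SIS ECM values were nearly equal in the 5 libraries and above all cells-alone values, and it rose by 1.03 ± 0.05 (adjusted p = 1.49e-08). Ddx41, a helicase and DNA sensor, had 59.7, 67.9, 69.2, 61.9 and 67.8 CPM in SIS ECM libraries, against 34.1, 31.7, 32.4, 32.2 and 37.3 CPM in cells-alone libraries. It rose by 0.95 ± 0.06 (adjusted p = 6.00e-08), by 0.96 ± 0.07 in libraries 1 to 3 and 0.93 ± 0.07 in libraries 4 to 6. Rgs17, which shortens G-protein signals, rose by 0.93 ± 0.06. The other 8 were Fam102a (0.996 ± 0.07), the postsynaptic scaffold Dlgap2 (0.95 ± 0.12), the growth factor receptor Fgfr2 (0.95 ± 0.11), the complement gene C4b (0.94 ± 0.10), Ifi204 and Thbs1, both given above, the patched-domain gene Ptchd1 (0.86 ± 0.08) and the serpin Serpina3g (0.83 ± 0.10), the last of a family of close copies.

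The 12 genes that fell most by the same rule held 4 of the matrix, Col1a1, Aspn, Postn and Col12a1, besides Ankrd37, Hmox1 and Ier3 above. Ppp1r3c, which targets a phosphatase to glycogen, had 0.893, 0.643, 3.80, 2.94 and 4.11 CPM in SIS ECM libraries, against 6.37, 6.62, 6.39, 5.34 and 5.08 CPM in cells-alone libraries. Its fall was −3.06 ± 0.21 in libraries 1 to 3 and −0.53 ± 0.16 in libraries 4 to 6 (adjusted p = 2.26e-06). The transcription factor basonuclin, Bnc1, fell by 1.33 ± 0.13 and the inositol phosphate kinase Itpk1 fell by 1.14 ± 0.17.

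The response of MC38 to SIS ECM differed from that of CT26 in 3740 of 14080 genes (26.6%), with the MC38 effect above that of CT26 in 1794 and below it in 1946 (12.7% and 13.8%), by a test of the difference over 22 libraries with a term for line and number range. Without the range term these counts were 404 and 761, and with the number term 609 and 1112. Of 3244 genes called in MC38 and tested here, 1695 differed. Those genes were chosen by their MC38 effect in libraries that also enter the difference. That choice favours a difference, so the share is no separate test. The MC38 effect was lower in 9 of 13 interstitial collagens, in 17 of 22 glycolysis genes, in 12 of 16 MHC class I genes and in 9 of 20 sterol enzymes, and higher in 0 of each list. It was lower in 17 and higher in 1 of 23 HIF targets outside glycolysis, and lower in 28 and higher in 2 of 31 interferon-stimulated genes. DNA replication and mitosis genes went the other way, with 11 and 12 of 26 genes higher than in CT26 and 0 lower. Without the range term the glycolysis count became 10, that of sterol enzymes 5, that of DNA replication 1 and that of mitosis 2, and with the number term the last 2 lists held 2 each. Without SIS ECM library 1 or 3 the mitosis count was 7 or 6. Of the 13 collagens, 6 had a mean under 1 CPM in both CT26 cultures, and among the other 7 the MC38 effect was lower in 5. With members under 1 CPM in CT26 left out, a choice made after seeing the data, the counts of the other 7 lists were as given. The CT26 cultures have their own cells-alone libraries, so the lines share no sample.

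Over members with at least 1 CPM in CT26, the median effect of 20 glycolysis genes was −0.33 in MC38 and 0.19 in CT26, and that of 20 HIF targets −0.42 and 0.26. For 7 interstitial collagens it was −0.52 in MC38 and 0.12 in CT26, and for 16 MHC class I genes −0.17 and 0.41. The median of sterol enzymes was below 0 in both lines (19 genes, −0.39 in MC38 and −0.17 in CT26), and interferon-stimulated genes had the same sign but a different size (30 genes, 0.13 in MC38 and 1.12 in CT26). Col1a1 itself had a log2 fold change of 0.12 ± 0.14 in CT26, at mean levels of 24.9 CPM with SIS ECM and 23.02 CPM in cells alone, and MC38 minus CT26 was −3.35 ± 0.28 (adjusted p = 8.66e-09). Hmox1 went in opposite directions, with 0.68 ± 0.14 in CT26 (adjusted p = 6.82e-04) and a difference of −2.18 ± 0.21 for MC38 minus CT26 (adjusted p = 5.90e-08).

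**Figure D5:**
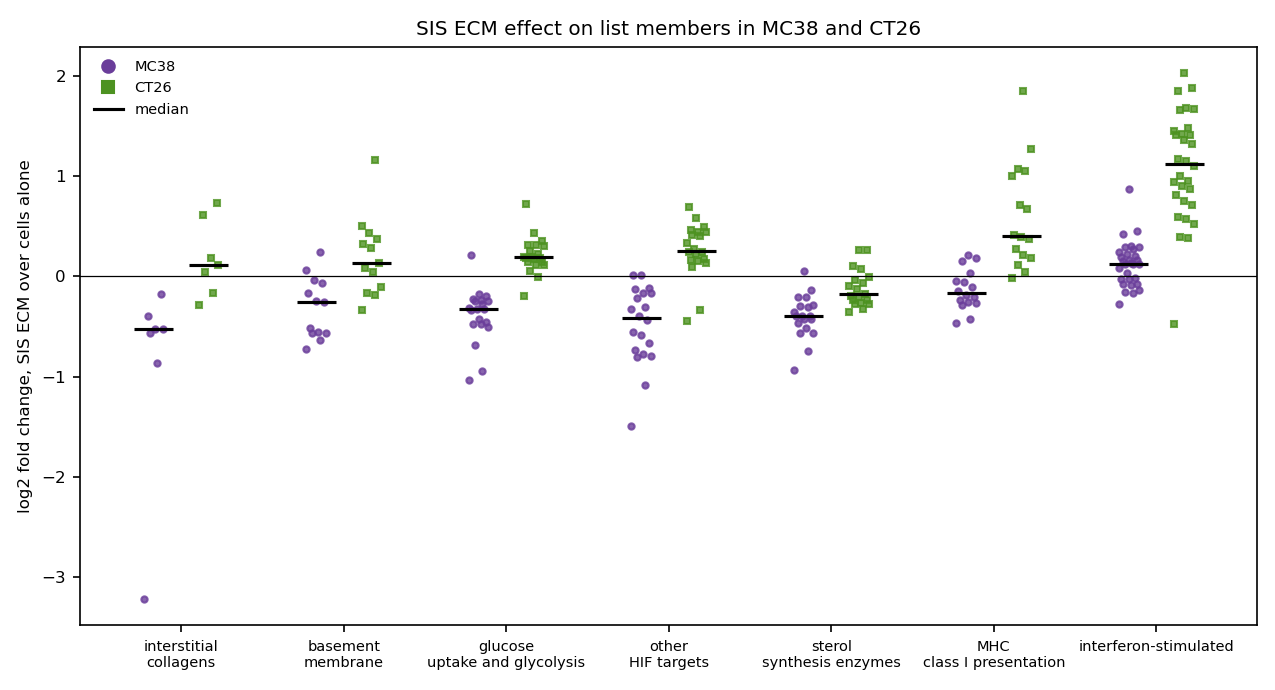
Log2 fold change of SIS ECM over cells alone (vertical axis) in MC38 (circles) and CT26 (squares) for the members of 7 gene lists with at least 1 CPM in CT26; horizontal lines are medians. Medians of collagens, basement membrane, glycolysis, HIF target and MHC class I genes are below 0 in MC38 and above 0 in CT26, those of sterol enzymes are below 0 in both, and interferon-stimulated genes are higher in CT26.

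Among genes changed in MC38, the smallest adjusted p for the difference belonged to Nedd9, Bcl6b, Sema6d, Xaf1, Oasl2 and Thbs2. Nedd9, a scaffold of focal adhesions, had 117, 103, 58.7, 58.3 and 57.8 CPM in SIS ECM libraries, against 133, 139.6, 144, 83.0 and 77.6 CPM in cells-alone libraries. Libraries 1 to 3 were higher in both cultures, and within a range SIS ECM was lower (−0.39 ± 0.05, adjusted p = 5.62e-05, and 0.170 without the range term). In CT26 the effect was 0.91 ± 0.05, so that MC38 minus CT26 was −1.32 ± 0.07 (adjusted p = 1.12e-11, and 0.0695 without the range term). Sema6d, a transmembrane guidance ligand, had 20.5, 22.04, 21.2, 21.4 and 23.8 CPM in SIS ECM libraries, against 16.1, 16.5, 13.6, 16.2 and 16.1 CPM in cells-alone libraries. SIS ECM was higher in all MC38 libraries (0.46 ± 0.07), and in CT26 the effect was −0.79 ± 0.05. Bcl6b rose more in MC38, with 0.45 ± 0.04 in CT26 and a difference of 1.57 ± 0.09. Less of a rise was seen in MC38 for Oasl2 (1.41 ± 0.06 in CT26, difference −1.12 ± 0.08), Thbs2 (1.69 ± 0.07 in CT26, difference −1.27 ± 0.09) and the pro-apoptotic interferon target Xaf1 (1.41 ± 0.06 in CT26, difference −1.23 ± 0.09). Thbs2 was not called in MC38 without the range term (adjusted p = 0.161). The MC38 effect of Xaf1 itself was 0.20 ± 0.05 (adjusted p = 0.0141), and 0.114 with the number term, 0.0923 without the range term and 0.0580 without SIS ECM library 3.

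In the authors' deposited table for MC38, 536 genes were higher and 554 lower at an adjusted p below 0.05, of 13101 listed. Of 12475 genes in the authors' deposited table and in the fit here, 1028 were called in both, all in the same direction, out of 1084 of the authors' calls and 3200 calls here. The authors' deposited table gives a log2 fold change of −4.08 for Col1a1, −1.04 for Slc2a1 and −0.995 for Mvd. The authors' deposited table of Hallmark gene sets lists 29 of 50 sets with a negative score and 0 with a positive score at an adjusted p below 0.05, with the lowest normalised enrichment scores for hypoxia (−2.685), myogenesis (−2.54) and epithelial-mesenchymal transition (−2.50).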

How the data were processed

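MC38 spheroids were grown with SIS ECM (5 libraries) or as cells alone (5 libraries), and polyA RNA was sequenced. The submitters' processing notes name cutadapt 1.18, STAR 2.7.0f, RSEM 1.3.1, limma and the builds mm10 and hg38 without roles, and no strand setting is given there. The authors deposited estimated counts per gene and library, with totals of 18877087 to 24196115 in MC38, which were rounded to whole numbers here. With 1 CPM standing for about 20 counts, genes near that level are limited by counting error. The authors' deposited table gives log2 fold changes and adjusted p-values, and their deposited Hallmark table gives normalised enrichment scores. Another 34 per-sample columns in the deposited comparison tables were not used, and the HT29 files were not analysed here.

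Genes passed edgeR's filter at a minimum count of 10. TMM factors, the quasi-likelihood F test (edgeR 4.0.16 in R 4.3.3, two-sided) and Benjamini-Hochberg adjustment over all genes tested followed, with terms for culture and number range (1 to 3 or 4 to 6). The same tool tested the culture by range interaction and the difference between the MC38 and CT26 effects. Group and library number were taken from the sample titles. Genes named are the 12 highest and 12 lowest changes of separated, called genes whose mean log2 CPM reaches 2, at least the 4 called members of smallest adjusted p in each list, and the 6 of smallest adjusted p in the interaction and in the line difference, predicted and clone-named genes left out. Some genes that this rule takes are not reported here. The members and lists were chosen with earlier results of these data known.

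Same-numbered libraries of both cultures deviated together from their group means (r = 0.225, 0.271, 0.321 and 0.188 over genes for numbers 1, 3, 4 and 5), but not from the means within a range (−0.067, −0.021, −0.034 and −0.01). The pairing therefore comes from the number range and not from a label. Alternatives were a replicate block by number, no range term, RLE factors, DESeq2 1.42.0, limma-voom 3.58.1, no filter, each range alone, the spread over 22 libraries and each library left out. Changes of 1 on the log2 scale in simulated counts of 13024 genes were called for 47 of 50 lowered and 48 of 50 raised genes, and changes of 0.5 for 40 of 50 lowered and 46 of 50 raised genes, with 8 false calls. Only 200 genes were changed, each by the same amount in both ranges. In the data the effect differed between the ranges in 2878 of 13146 genes. The simulation therefore checks the method and does not give the error rate of the calls reported here. Promoter letters were read from RefSeq sequences of GRCm38.p6.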

Additional observations from a re-analysis of the deposited data

Results flagged for a closer look

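In 18 of 424 groups of 5 libraries examined over the genes named here (4.25%), 1 library stood far from the other 4, with a gap to its nearest neighbour above 0.71 of the range of the group. For 5 values from a single normal distribution this happens in about 1 in 20 groups. Each group here mixes the number ranges, so that rate does not give the share to be had by chance. Cells-alone library 4 was the lowest of its group for Col16a1 (171 CPM), Mvd (16.4 CPM), Pfkl (110 CPM), Pkm (1925 CPM), Plod3 (84.0 CPM) and Srebf1 (32.9 CPM), and the highest for P4ha2 (190 CPM). All SIS ECM libraries still lay below it for Col16a1, Mvd, Pkm, Plod3 and Srebf1, and for Pfkl the highest SIS ECM library (111 CPM) reached it. Cells-alone library 5 was highest for Gapdh (2562 CPM) and Phgdh (239.6 CPM), library 1 for Bgn (98.2 CPM) and Fam102a (12.1 CPM) and library 3 for Itgb1 (1573 CPM), and library 3 was lowest for Sema6d (13.6 CPM). Among SIS ECM libraries, library 1 was highest for Ebp (13.0 CPM) and lowest for Isg15 (29.8 CPM), library 3 was highest for Ndufs1 (135 CPM) and lowest for Plod1 (51.7 CPM), and library 4 was highest for Irf9 (35.3 CPM).

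The SIS ECM effect differed between the number ranges in 2878 genes by the interaction test. The 6 genes of smallest adjusted p had an effect in libraries 4 to 6 minus that in libraries 1 to 3 of 1.79 for Hk2, 1.45 for Egln3, 2.16 for Ankrd37, 1.28 for Slc2a1, 1.38 for Bhlhe40 and 2.74 for Prdm1 on the log2 scale. For the first 5 the effect was less negative in libraries 4 to 6, and for Prdm1 its sign changed.

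The SIS ECM effect differed between MC38 and CT26 in 3740 genes by the test of the difference. MC38 minus CT26 was −1.32 for Nedd9, 1.57 for Bcl6b, 1.24 for Sema6d, −1.23 for Xaf1, −1.12 for Oasl2 and −1.27 for Thbs2 on the log2 scale.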

How the results depend on the processing

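The 3246 genes changed by SIS ECM in MC38 became 1206 without the range term and 1188 with the replicate block (8 libraries; 1182 of those 1188 genes were among the 3246). Libraries 1 to 3 alone gave 5287 and libraries 4 to 6 alone 2318. RLE factors gave 3268, DESeq2 3306, limma-voom 3289, no count filter 3480 and the spread over 22 libraries 2372, and leaving out a library gave 2242 to 4023. The 2878 genes whose effect differed between the ranges were 2878 with RLE factors, 2920 without the filter, 2533 in DESeq2 and 1555 (without SIS ECM library 3) to 3094 with 1 library left out. The 3740 genes that differed between MC38 and CT26 became 1165 without the range term and 1721 with the replicate block by line and number, with 34.7% and 35.4% of them higher in MC38 in place of 48.0%. They numbered 3705 to 3926 with RLE factors, no filter or DESeq2 and 2884 to 3982 with 1 MC38 library left out. The cause of these differences was not tested. Of 212 genes named, the replicate block ended the call on 30, all given in the report with their adjusted p, and changed no other call; leaving out the range term ended 46. RLE factors ended 2 (Ndufa2 and Vim), no filter 1 (Ccnb2) and the spread over 22 libraries 13, of which Ftl1 (adjusted p = 0.0578) was lost under that setting alone. Libraries 1 to 3 alone added calls on 10 genes, B2m and Cdh11 among them, and libraries 4 to 6 alone on 8. With all 10 libraries, genes not called that passed elsewhere were B2m, Prdm1 and Vegfa without the filter (adjusted p = 0.000344, 2.97e-14 and 1.08e-07), B2m, H2-K1, Timp2 and Zeb1 in DESeq2, Timp2 in limma-voom, and B2m and Cdh2 with the spread over 22 libraries. Prdm1 and Vegfa had effects of opposite sign in the ranges, so their pass without the filter does not show a common effect. Among genes called over all libraries or within the range named, the sign changed for Dcn (0.137 in libraries 1 to 3 alone) and, in libraries 4 to 6 alone, for Ifit1 (−0.209), mt-Nd1 (−0.0025) and Prdm1 (0.537). Levels near 1 CPM rest on about 20 counts, and a gene that did not pass is not shown to be unchanged.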
